A study of Mus musculus with 13 samples.

Results

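Kruppel-like factors (KLFs) are zinc finger proteins that bind GC-rich and CACCC-type DNA through 3 zinc fingers at their C terminus. The family holds activators and repressors that often compete for the same elements, and fibroblasts express many of its members. Klf4 is 1 of the 4 factors used to reprogram fibroblasts, and Klf10 and Klf11 were named as early genes induced by TGF-β, the signal that SMAD3 carries to the nucleus. The binding of SMAD3 and OCT4 was examined here at 8 members, Klf3, Klf4, Klf6, Klf7, Klf9, Klf10, Klf11 and Klf13, out of 21938 protein-coding genes on chromosomes 1 to 19, X and Y of the GENCODE vM21 annotation. For each gene, its annotated span plus 10 kb on each side was taken as the window, and every peak or site that shared at least 1 bp with it was counted.

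Binding was measured by ChIP-seq, which sequences the DNA that an antibody pulls down with its protein, in 13 samples of mouse embryonic fibroblasts (MEFs) collected on day 3. All cells came from a mouse line of mixed 129 and CD1 background with a GFP knocked into Nanog, a ubiquitously expressed rtTA, and a doxycycline (dox)-inducible cassette of c-Myc, Klf4, Oct4 and Sox2 (MKOS) with an mOrange reporter at the Sp3 locus. All cells, including those without dox, had also been infected with a retrovirus for a constitutively active Smad3 (Smad3CA), so no group lacked added SMAD3 activity. OCT4 was precipitated from cells given 1 µg/ml dox (OCT4 Dox+, n = 3), SMAD3 from cells given dox (SMAD3 Dox+, n = 3) and from cells without it (SMAD3 Dox-, n = 3), and input DNA was sequenced from 2 Dox+ and 2 Dox- samples. The sources used here do not say whether replicates came from separate embryos or cultures, so a p-value measures only the spread between these samples. Transcript levels were not analysed here, so neither the expression of the 8 genes nor the fibroblast identity of the cells was checked with markers. The comparisons ask where SMAD3 lay at these genes, whether that changed when MKOS was induced, and whether OCT4 was found there.

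Lists of peaks (regions with more reads than input) differed in length between replicates. SMAD3 lists held 420, 23981 and 10374 peaks in Dox+ and 1656, 18588 and 4038 in Dox-, and OCT4 lists held 1191, 1131 and 103. The merged lists, called on pooled replicates, held 12576 peaks for SMAD3 Dox+, 11512 for SMAD3 Dox- and 2083 summit entries for OCT4. The fold enrichment written beside a SMAD3 peak did not follow the same peak from list to list. Its Spearman correlation between the merged list and a replicate list lay between -0.05 and 0.10 over 399 to 12332 peak pairs, although the merged list contains that replicate's reads, against 0.58 to 0.68 for OCT4 over 92 to 957 pairs. Peak length did follow, with 0.28 to 0.68 for SMAD3. SMAD3 peaks are therefore described by position, length and the number of lists that hold them, and OCT4 peaks also by their fold and −log10 q-value.

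In the merged lists, a SMAD3 peak was found at all 8 Klf genes in both conditions. Every window had a merged SMAD3 peak in Dox+, where 52.5% of all protein-coding genes had one, and every window had one in Dox-, where 48% did. When at least 2 replicate lists had to hold the peak, 8 genes kept one in Dox+ and 7 in Dox-, all but Klf11. The share of all genes was not computed for that setting. The windows of the 8 genes had a median length of 39213 bp, against 37425 bp for all genes. In the single lists, 2, 8 and 8 of the 8 genes had a SMAD3 peak in Dox+ replicates 1, 2 and 3, and 5, 8 and 7 in the Dox- replicates. The same lists reached 2.57%, 62.95% and 47.0% of all genes in Dox+ and 10.84%, 56.28% and 22.2% in Dox-. The gene counts thus moved with the lengths of the lists, and in each list the share of the 8 genes was above the share of all genes. Of the other 18 genes of the KLF and SP family, 10 had a merged Dox+ and 8 a merged Dox- SMAD3 peak.

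**Figure D1:**
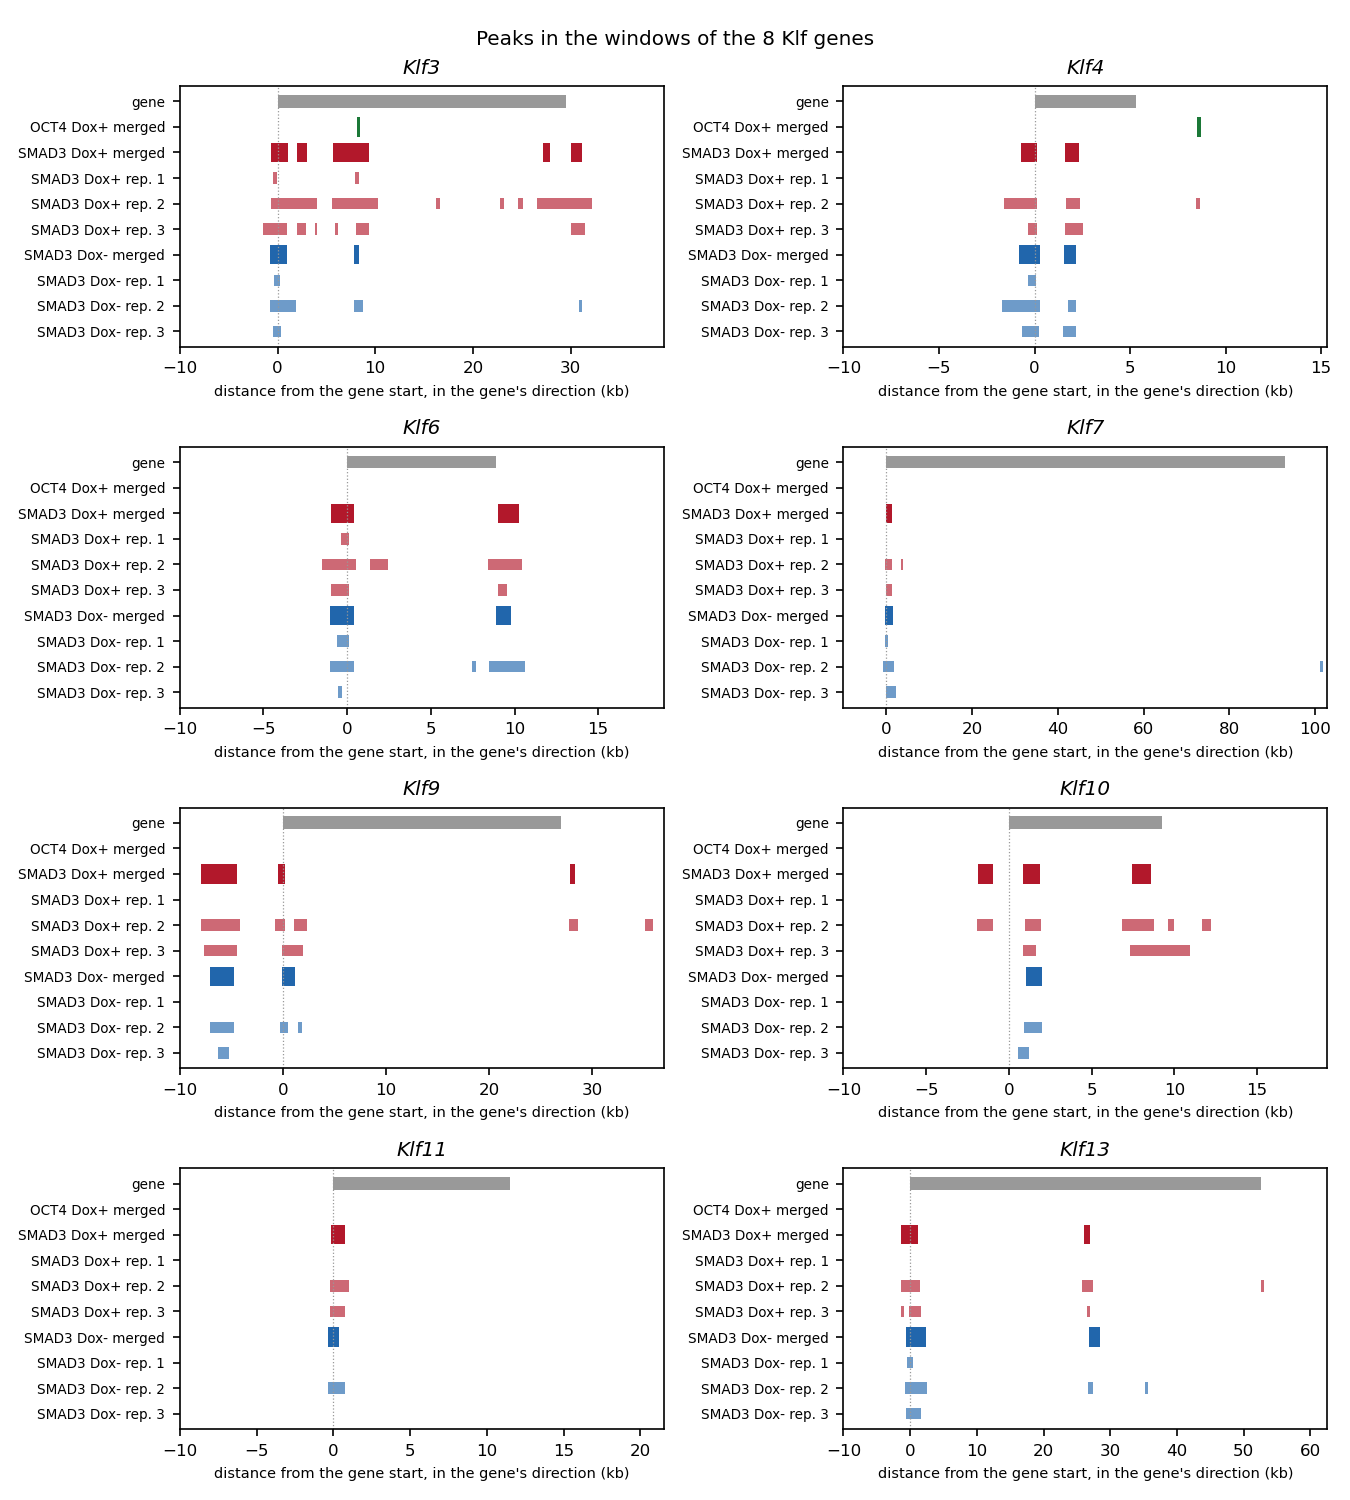
Peaks in the window of each gene, by distance from the gene start in kb along the gene's direction, with the annotated gene in grey, merged lists as tall bars and replicate lists as short pale bars (short peaks are widened to stay visible). A SMAD3 peak lies at or near the start of all 8 genes in Dox+ and Dox-. Merged Dox+ peaks that no Dox- list holds appear at Klf3, Klf9 and Klf10 only, and OCT4 peaks at Klf3 and Klf4 only.

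OCT4 peaks were found at 2 of the 8 genes, Klf3 and Klf4, where 4.85% of all protein-coding genes had a merged OCT4 peak. Neither peak overlapped a peak of any of the 3 OCT4 replicate lists, so both rest on the pooled reads. The Klf3 peak lay in an intron at chr5:64811489-64811747 (mm10), 8230 bp from the gene start and 721 bp from the nearest annotated Klf3 transcript start. Its fold over input was 3.84 and its −log10 q-value 2.36, and only 1.06% of the OCT4 entries had a lower −log10 q-value. The Klf4 peak lay past the 3′ end of the gene, with a fold of 5.48 and a −log10 q-value of 6.40. It lay outside every Klf4 exon, so it does not overlap the sequence that the cassette carries. Both peaks were thus below the median fold of the list, 6.15.

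The 200 bp around the summit of the Klf3 peak, chr5:64811481-64811680, are shown because the OCT4 peak meets SMAD3 peaks of both conditions there. The sequence is in lower case on the plus strand of GRCm38, with no capitals since it held none of the motifs searched.

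Klf3: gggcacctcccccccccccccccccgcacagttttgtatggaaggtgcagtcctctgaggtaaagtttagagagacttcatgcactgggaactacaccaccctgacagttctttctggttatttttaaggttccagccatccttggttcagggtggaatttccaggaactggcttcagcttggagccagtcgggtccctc

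The motifs searched on both strands were a KLF site (GGGCGTGG or GGGTGTGG), the octamer bound by OCT4 (ATGCAAAT), the AP-1 site (TGACTCA), the SMAD half-site (CAGAC) and the SMAD palindrome (GTCTAGAC), none of which contains another. The Klf3 window held neither an octamer, which 6.63% of the 2022 distinct OCT4 regions held, nor a SMAD half-site, which 30.8% did. The Klf3 window held a run of 17 C bases at chr5:64811489-64811505, where a run of at least 15 equal bases was found in 0.94% of OCT4 regions. The pooled signal in the bin at the middle of that run, 121 bp before the peak center, was 13.9 for OCT4, 15.9 for SMAD3 Dox+ and 6.59 for SMAD3 Dox-. A match of letters is a description and not a binding site, and the part of the run of C in the Klf3 signal was not tested.

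Both OCT4 peaks met a SMAD3 peak of at least 1 Dox+ list, but only that of Klf3 met a merged Dox+ SMAD3 peak. Of all 2083 OCT4 entries, 527 met exactly 1 merged Dox+ SMAD3 peak. The Klf3 peak was overlapped by SMAD3 peaks of Dox+ lists 1, 2 and 3 and of Dox- list 2. The Klf4 peak was overlapped by a peak of Dox+ list 2, the longest list, and of no Dox- list. The deposited signal is the pooled ChIP coverage minus input, each scaled to a mean genome coverage of 1, and it has no replicates. Over the central 200 bp of the Klf3 peak the signal was 18.5 for OCT4, 25.4 for SMAD3 Dox+ and 7.16 for SMAD3 Dox-. A single fragment added 2.04, 1.67 and 2.2 units in these pools, so the values stand for a mean of 9.06, 15.2 and 3.25 overlapping fragments above input. The SMAD3 signal at Klf3 was thus high in both conditions for an OCT4 region, ranking 16 of 2083 entries in Dox+ and 32 in Dox-, while its OCT4 signal ranked 1520. At the Klf4 peak the signal was 21.1 for OCT4, 12.6 for SMAD3 Dox+ and 0.161 for SMAD3 Dox-, where the medians over all entries were 21.6, 7.24 and 0.028. Klf4 therefore had an OCT4 signal close to the median and a SMAD3 signal in Dox+ that 82.6% of entries did not reach, with less than 1 fragment above input in Dox-. The Dox+ minus Dox- difference was 18.3 at Klf3 and 12.4 at Klf4, ranks 91 and 370 of 2083, against a median of 7.27 over all entries. These few fragments set the precision, and no test of the difference was possible in pooled values.

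**Figure D2:**
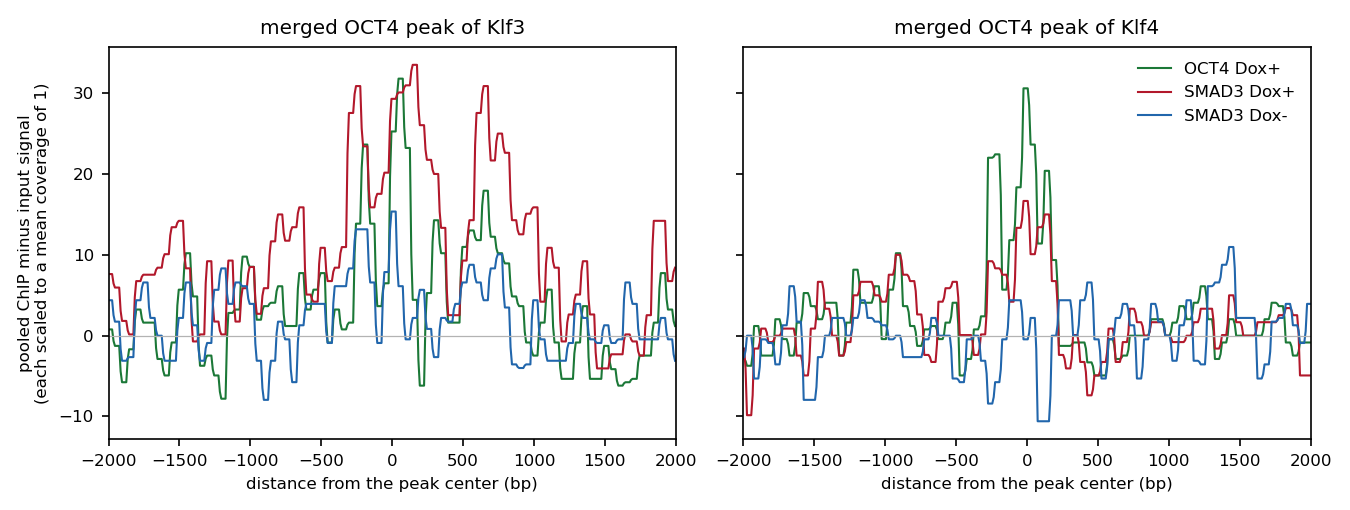
Pooled ChIP minus input signal within 2000 bp of the center of the merged OCT4 peaks of Klf3 (left) and Klf4 (right), for OCT4 Dox+ (green), SMAD3 Dox+ (red) and SMAD3 Dox- (blue). At Klf3 the SMAD3 Dox+ signal reaches 33.5 and spreads beyond the OCT4 peak, while at Klf4 it reaches 16.7 near the center, where SMAD3 Dox- stays near 0.

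Klf3, a repressor that works with the corepressor CtBP, had the most bases covered by SMAD3 peaks in Dox+ among the 8 genes. The gene lies on the plus strand at chr5:64803388-64832901, and its window had 5 merged Dox+ peaks and 2 merged Dox- peaks. The first, chr5:64802699-64804461, lay over the gene start, was held by all 6 SMAD3 lists, and also overlapped 2 noncoding genes, C230096K16Rik and Gm20033. The next, chr5:64805426-64806358 in an intron, was held by 2 Dox+ lists and no Dox- list. The merged Dox+ peak that covers the OCT4 region, chr5:64809041-64812718, was 3678 bp long. The merged Dox- peak in the same place, chr5:64811264-64811736, was 473 bp long. Over the OCT4 region, Dox+ lists 1, 2 and 3 held peaks of 405, 4694 and 1379 bp, and Dox- list 2 held 1 of 980 bp. The length thus varied widely between lists, and the merged lengths have no replicates. Toward the 3′ end, a peak in the 3′ UTR, chr5:64830553-64831233, was held by Dox+ list 2 alone, and one 515 bp past the gene, chr5:64833416-64834539, by 2 Dox+ lists and 1 Dox- list.

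The bases covered by SMAD3 peaks in the Klf3 window were 789, 16235 and 6686 in Dox+ replicates 1, 2 and 3, and 678, 3902 and 821 in the Dox- replicates. The longest Dox+ list covered the most, but the groups overlapped, since Dox+ replicate 1 lay under Dox- replicates 2 and 3. The means were 7903 ± 7795 and 1800 ± 1822 bp (SD, n = 3 each), and the difference of 6103 bp was within the spread of the lists (exact two-sided permutation test, p = 0.3). With 3 against 3 lists such a test cannot give a p below 0.1. As bases per Mb covered by the whole list, the values were 6438, 946 and 899 in Dox+ and 893, 289 and 383 in Dox-. On this scale the groups did not overlap (exact permutation p = 0.1, the smallest it can give), although the lowest Dox+ and the highest Dox- value nearly met. Among all gene windows 0.506% were higher in every Dox+ list on this scale, and 1.66% were lower.

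2 Klf3 regions were in the authors' table of SMAD3 sites that differ between conditions, made with DiffBind, which gives log2 mean read concentrations per group without replicate values. The intronic region chr5:64808978-64813671, which holds the OCT4 peak, had a log2 mean of 6.09 in Dox+ and 3.89 in Dox-. The region over the 3′ end, chr5:64829978-64835602, had 5.61 in Dox+ and 4.07 in Dox-. Both were thus higher in Dox+, each was held by Dox- list 2 alone among the Dox- lists, and their differences ranked 492 and 908 among the 1176 sites that are higher in Dox+. Since the table lists only sites that passed the authors' thresholds, these differences are a description.

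Klf10, also called TIEG1, is an early TGF-β-induced repressor. The gene lies on the minus strand at chr15:38291463-38300706, with 3 merged Dox+ SMAD3 peaks and 1 merged Dox- peak. The peak shared by the conditions, chr15:38298854-38299866 in Dox+ and chr15:38298737-38299675 in Dox-, lay in an intron 278 and 124 bp from an annotated Klf10 transcript start and was held by 2 lists of each condition. The other Dox+ peaks were found in no Dox- list. They lay at the 3′ end of the gene, chr15:38292113-38293282, held by Dox+ lists 2 and 3, and 1439 bp upstream of the start, chr15:38301693-38302597, held by list 2 alone.

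The covered bases at Klf10 were 0, 4691 and 4401 in the Dox+ lists and 0, 1086 and 665 in the Dox- lists. Replicates 2 and 3 of Dox+ were above every Dox- list, and replicate 1 of both conditions had no peak. The means were 3031 ± 2629 and 584 ± 548 bp (SD, n = 3 each; exact permutation p = 0.4). The region over the 3′ end, chr15:38289788-38293861, was listed by the authors with a log2 mean of 5.25 in Dox+ and 1.71 in Dox-. Its difference of 3.54 was rank 60 of the 1176 sites that are higher in Dox+, the steepest of the 3 listed regions of the 8 genes.

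The central 200 bp of the Klf10 Dox+ peaks that no Dox- list held are shown on the plus strand of GRCm38, with the SMAD half-site of each in capitals. They are chr15:38292597-38292796 in an intron and chr15:38302045-38302244 upstream. The Dox+ peaks of Klf3 and Klf9 that no Dox- list held had none of the motifs searched in their central 200 bp. The same was true of the central 200 bp of the listed Klf10 region over the 3′ end.

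Klf10 intron: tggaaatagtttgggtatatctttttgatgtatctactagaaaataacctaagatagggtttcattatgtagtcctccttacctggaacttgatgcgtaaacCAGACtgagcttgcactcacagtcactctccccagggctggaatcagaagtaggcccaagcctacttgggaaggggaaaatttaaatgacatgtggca

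Klf10 upstream: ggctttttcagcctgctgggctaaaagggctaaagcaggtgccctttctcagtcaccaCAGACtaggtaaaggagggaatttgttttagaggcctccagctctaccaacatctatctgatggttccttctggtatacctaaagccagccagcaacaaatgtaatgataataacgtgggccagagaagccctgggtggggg

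A SMAD half-site was found in the central 200 bp of 4 of the 19 merged Dox+ peaks of the 8 genes, at Klf3, Klf9 and Klf10, where 34.8% of all merged Dox+ peaks held one. None of the 19 held the octamer (0.755% of all) or the SMAD palindrome (0.239%), 1 held an AP-1 site, at Klf9 (4.3%), and 1 a KLF site, at Klf13 (7.63%). Among the 13 merged Dox- peaks, 2 held a half-site, at Klf9 and Klf13, against 36% of all merged Dox- peaks. In both conditions the share with a half-site was thus below that of the list the peaks come from, a difference that was not tested. The peaks are few, and 13 of the 19 Dox+ peaks overlapped a merged Dox- peak, so the conditions are not separate observations. The rest of each peak, outside its central 200 bp, was not searched.

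**Figure D3:**
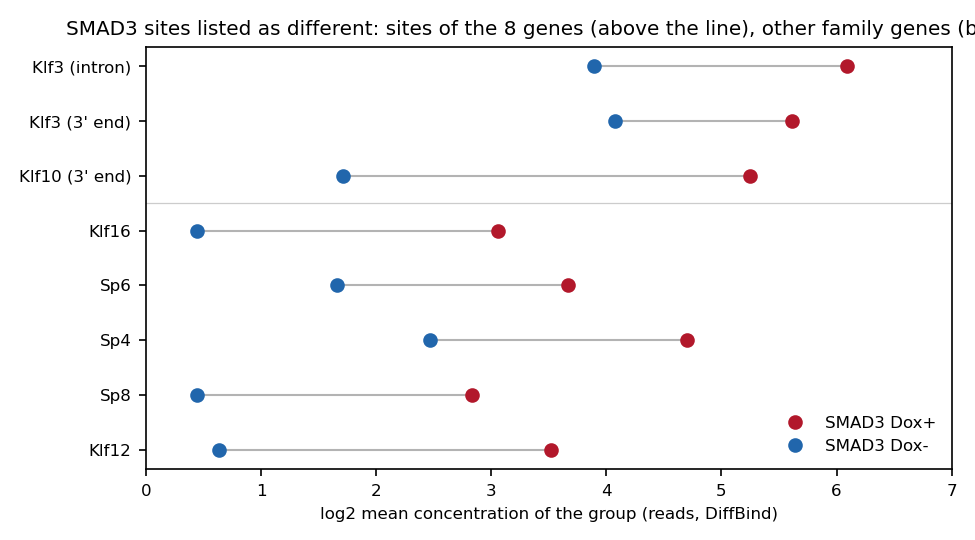
The authors' log2 mean read concentration of SMAD3 in Dox+ (red) and Dox- (blue) at the sites listed as different within 10 kb of the 8 genes (above the line) and of the other KLF and SP genes (below). In Dox- the sites of Klf3 have higher means than that of Klf10, and all 8 sites are higher in Dox+. The means are read values of sites of unlike length and are not adjusted for it.

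The 8 windows held 15 regions found in at least 2 of the 6 SMAD3 replicate lists, and 3 of them, those of Klf3 and Klf10, were listed as higher in Dox+. Over all 13217 such regions 8.9% were listed as higher and 6.84% as lower, and none of the 15 was listed as lower. By gene, 2 of 8 had a site listed as higher in Dox+, where 6.64% of all genes had one, and 0 of 8 had one listed as lower, where 3.85% did. Among the other 18 family genes, Klf16, Sp6, Sp4, Sp8 and Klf12 had a site listed as higher and none a site listed as lower. The log2 means of those 5 sites ran from 2.83 to 4.70 in Dox+ and from 0.44 to 2.47 in Dox-. The Dox- mean was the same 0.44 at Klf16 and Sp8, and whether that is the lowest value possible was not tested. Sp8, Klf12 and Klf8 had a merged OCT4 peak, with folds of 6.18, 6.03 and 9.19, and those of Sp8 and Klf12 overlapped their listed SMAD3 sites.

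Klf4, the reprogramming factor of the family, lies on the minus strand at chr4:55527143-55532466. Its window held 2 merged SMAD3 peaks in each condition, a pair at the promoter and a pair inside a coding exon. The promoter peaks, chr4:55532345-55533166 in Dox+ and chr4:55532177-55533303 in Dox-, were centered 289 and 274 bp upstream of the start and were held by 2 Dox+ and 3 Dox- lists. The exonic peaks, chr4:55530133-55530854 and chr4:55530291-55530922, lay with every base in coding exon and were held by 2 lists of each condition. The MKOS cassette carries the Klf4 coding sequence in every sample, so reads from the cassette and from the gene cannot be told apart in these exons. Peaks that lie wholly in coding exon made up 0.334% of the merged Dox+ list and 0.261% of the Dox- list. Of the other cassette genes, Sox2 had 84.1% and Myc 45.8% of its coding bases in merged Dox+ SMAD3 peaks, and Pou5f1, which encodes OCT4, had 0%, where the merged Dox- values were 49.8%, 0% and 0%. In the Dox- replicate lists the share for Myc was 0%, 0% and 42.5%. Klf4 had 49.8% in Dox+ and 43.6% in Dox-, so the exonic peaks were present without dox too.

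The covered bases at Klf4 were 0, 2629 and 1396 in the Dox+ lists and 415, 2466 and 1545 in the Dox- lists. The groups overlapped almost wholly, with means of 1342 ± 1315 and 1475 ± 1027 bp (SD, n = 3 each; exact permutation p = 0.9). With the coding exons left out, a choice made after seeing the data, the values were 0, 1896 and 500 in Dox+ and 415, 2027 and 867 in Dox-. Their means were 799 ± 983 and 1103 ± 832 bp (exact permutation p = 0.6), so the groups still overlapped.

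Klf6 and Klf7 are closely related activators of the family. Klf6 lies on the plus strand at chr13:5861482-5870394, and its window held the same pair of SMAD3 peaks in both conditions. The peak at the start, chr13:5860493-5861902 in Dox+, was held by all 6 lists, and the peak just past the gene, chr13:5870468-5871769, by 2 Dox+ lists and 1 Dox- list. Its covered bases were 444, 5091 and 1598 in Dox+ and 689, 3793 and 216 in Dox- (means 2378 ± 2420 and 1566 ± 1943 bp, SD, n = 3 each; exact permutation p = 0.6). The groups overlapped, and the Dox+ minus Dox- difference depended on the longest list of each group. It was -545 bp without Dox+ replicate 2 and 1925 bp without Dox- replicate 2. Within replicate numbers 1, 2 and 3 it was -245, 1298 and 1382 bp.

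Klf7 lies on the minus strand at chr1:64029447-64122282 and, although the longest of the 8 genes, had 1 merged SMAD3 peak in each condition. It lay at the start, chr1:64121071-64122388 in Dox+ and chr1:64120803-64122581 in Dox-, and was held by 2 Dox+ and 3 Dox- lists. Its covered bases were 0, 2026 and 1320 in Dox+ and 634, 2693 and 2313 in Dox- (means 1115 ± 1028 and 1880 ± 1096 bp, SD, n = 3 each; exact permutation p = 0.5). The groups overlapped, with Dox+ replicate 2 above Dox- replicate 1. As bases per Mb covered by the list, the values were 0, 118 and 177 in Dox+ and 835, 200 and 1079 in Dox-, which did not overlap (exact permutation p = 0.1). Klf7 was thus the gene with the lower Dox+ values on the scale on which Klf3 had the higher ones, and the 2 highest Dox- values came from the shorter Dox- lists, 1 and 3.

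Klf9, Klf11 and Klf13 are repressors that recruit the SIN3 corepressor, as Klf10 does. Klf9, which glucocorticoids and thyroid hormone induce in many cells, lies on the plus strand at chr19:23141226-23168134 and had 3 merged Dox+ and 2 merged Dox- peaks. A long peak upstream, chr19:23133317-23136767 in Dox+, lay 142 bp from the start of another transcript, 2410080I02Rik, so it cannot be assigned to Klf9 alone. The peak at the Klf9 start, chr19:23140755-23141458 in Dox+ and chr19:23141156-23142364 in Dox-, was held by 2 Dox+ lists and 1 Dox- list. A peak 891 bp past the gene, chr19:23169025-23169540, was held by Dox+ list 2 alone. The covered bases were 0, 7461 and 5300 in Dox+ and 0, 3528 and 1031 in Dox- (means 4254 ± 3839 and 1520 ± 1814 bp, SD, n = 3 each; exact permutation p = 0.4). As at Klf10, Dox+ replicates 2 and 3 were above every Dox- list and replicate 1 of both conditions had no peak.

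Klf11, also called TIEG2 or TIEG3, lies on the plus strand at chr12:24651274-24662789. Among the 8 genes it had the lowest mean of bases covered by SMAD3 peaks in both conditions, not adjusted for window length. Its only peak lay at the start, chr12:24651135-24652005 in Dox+ and chr12:24650923-24651617 in Dox-, and was held by 2 Dox+ lists and 1 Dox- list. The covered bases were 0, 1225 and 991 in Dox+ and 0, 1127 and 0 in Dox- (means 739 ± 650 and 376 ± 651 bp, SD, n = 3 each; exact permutation p = 0.7). The groups overlapped, and no Klf11 region was listed as different.

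Klf13, known from T cells and heart, lies on the minus strand at chr7:63886351-63938915 and had a pair of merged peaks in each condition. The peak at the start, chr7:63937679-63940349 in Dox+, was held by 2 Dox+ and 3 Dox- lists. The second, chr7:63912017-63912809 in Dox+ and chr7:63910416-63912124 in Dox-, lay in an intron 26502 bp from the gene start and was held by 2 Dox+ lists and 1 Dox- list. The covered bases were 0, 4875 and 2518 in Dox+ and 848, 4378 and 2206 in Dox- (means 2464 ± 2438 and 2477 ± 1781 bp, SD, n = 3 each; exact permutation p = 1). The groups were nearly level. The RefSeq promoter of Klf13 was the only one of the 7 matched with a KLF site, and the central 200 bp of its Dox+ start peak held the same site. The merged Dox- peak at the start covers this site too, outside its own central 200 bp. The 250 bases before the start are shown on the gene's strand, the minus strand of chr7:63938916-63939165 (GRCm38.p6), with the KLF site, read on the opposite strand, in capitals.

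Klf13 promoter: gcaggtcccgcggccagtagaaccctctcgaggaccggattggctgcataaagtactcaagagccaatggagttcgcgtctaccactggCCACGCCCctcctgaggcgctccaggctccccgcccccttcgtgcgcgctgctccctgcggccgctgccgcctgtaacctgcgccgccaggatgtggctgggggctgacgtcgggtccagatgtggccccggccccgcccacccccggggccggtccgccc

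RefSeq promoters were matched for 7 of the 8 genes, all but Klf10. The KLF site was found in 1 of these 7, where 7.72% of 32817 promoters held one, and the SMAD half-site in 1, that of Klf3, where 42.2% did. In the coding exon of Klf4, the central 200 bp of the merged Dox- peak also held a KLF site. The merged Dox+ peak in that exon covers the same site, outside its own central 200 bp.

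**Figure D4:**
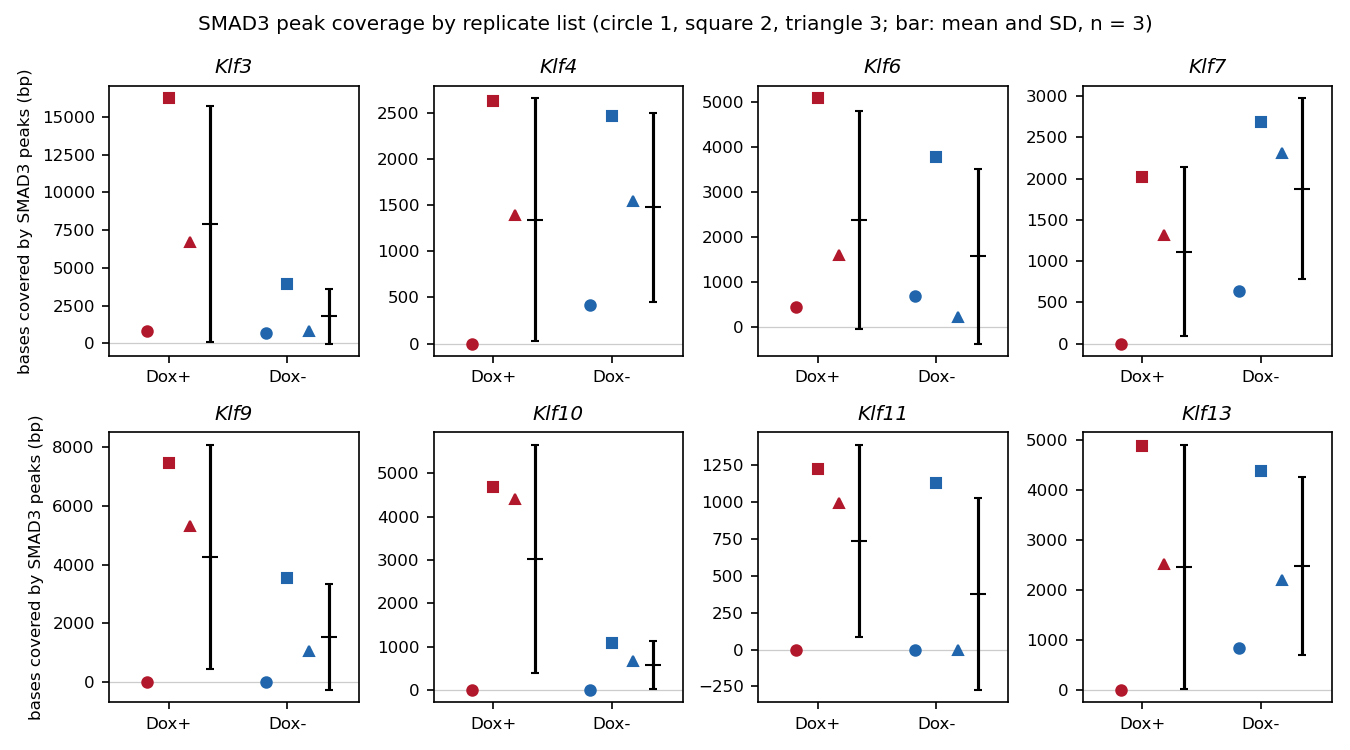
Bases covered by SMAD3 peaks in each gene window, by replicate list (circle 1, square 2, triangle 3), in Dox+ (red) and Dox- (blue), with the mean and SD of the 3 lists as a bar; each panel has its own scale. Replicate 2 is the highest list of both groups in all 8 panels, and the groups overlap in every panel.

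Over the 8 genes, covered bases were higher in every Dox+ than in every Dox- list at 0 genes, where 0.0957% of all gene windows were, and lower in every Dox+ list at 0, where 0.0182% were. Without Dox+ replicate 1, whose list was the shortest, 3 of the 8 genes, Klf3, Klf9 and Klf10, were higher in both other Dox+ lists than in every Dox- list, against 16.3% of all gene windows. Of the 19 merged Dox+ peaks in these windows, 13 overlapped a merged Dox- peak, a share of 68.4% beside 61% over the whole list. All 13 merged Dox- peaks overlapped a merged Dox+ peak, beside 66.3% over the whole list. The remaining Dox+ peaks included 5 that met no Dox- replicate list, at Klf3, Klf9 and Klf10, which was 5 of 19 where 29.8% of all merged Dox+ peaks met none. Of the 19 Dox+ peaks, 8 were centered within 1000 bp of a protein-coding transcript start, a share of 42.1% beside 68.8% over the list, and of the 13 Dox- peaks 9 were, 69.2% beside 66%. The 5 Dox+ peaks that met no Dox- list were all centered more than 1000 bp from such a start. Those in the 3′ UTR of Klf3, past Klf9 and upstream of Klf10 were held by Dox+ list 2 alone. The same share over all merged Dox+ peaks that met no Dox- list was not computed, so nothing particular to these genes is read from it.

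OCT4 and SMAD3 concentrations were also set side by side in a second table of the authors, for Dox+ cells only, which shares its SMAD3 samples with the comparison above. A site of Klf10, chr15:38298785-38299886 over the intronic SMAD3 peak, had a log2 mean of 4.90 for OCT4 and 3.74 for SMAD3, although no OCT4 list held a peak there. The start of Klf6, chr13:5859957-5861987, had 3.09 for OCT4 and 4.54 for SMAD3. Among sites of the same direction the Klf10 difference ranked 1310 of 1349 and the Klf6 difference 604 of 658, so both were near the smallest. The means come from different antibodies, so their difference does not compare occupancy. Klf10 was thus the 1 gene of 8 with a site listed as higher for OCT4, where 4.17% of all genes had one, and Klf6 the 1 with a site listed as higher for SMAD3, where 5.15% did. Among the other 18 family genes, 3 had a site listed as higher for OCT4 and 0 for SMAD3.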

How the data were processed

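ChIP-seq of 13 MEF samples was analysed from the processed files, grouped by antibody and dox as labelled. The authors aligned reads to mm10 with Bowtie2, removed duplicates, low-quality and blacklisted reads, and called narrow (OCT4) and broad (SMAD3) peaks with MACS2 2.1.0 against pooled inputs, per replicate and on merged replicates. Beside each deposited peak stands its enrichment over input, a ratio, and its q-value as −log10. In the deposited matrices each score is coverage of pooled ChIP after subtraction of input, made with deepTools 2.2.3 in 400 bins of 10 bp, and can be negative. The deposited DiffBind tables give log2 mean concentrations per group; their fold, p-value and FDR columns were not used. Total reads per sample were not analysed here, so the depth of each library is unknown, and list lengths stand in its place.

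Gene windows, covered bases, overlaps and exact permutation tests were computed with Python 3.11.15, numpy 2.4.6, pandas 2.3.3 and scipy 1.17.1, and sequences read from GRCm38 with pysam 0.24.0. The steps were tested on simulated data. The members and the family list were chosen with earlier results of these data known. All 8 genes are named, and other family genes only where they had an OCT4 peak or a listed SMAD3 site. Alternatives covered the window, overlap, peak threshold, list length, replicates and replicate block. The labels give 1 µg/ml dox, while the methods give a lower dose for reprogramming in general. The sequence under the Klf4 OCT4 peak is not reported here.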

Additional observations from a re-analysis of the deposited data

How the results depend on the processing

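The count of genes with a merged OCT4 peak, 2, changed with the flank and the peak threshold. It was 1 with no flank, 4 with 50 kb on each side and 1 at a −log10 q-value of at least 5. It was 0 with support by at least 2 replicate lists. When each OCT4 replicate was left out and support by another was asked for, it was also 0. The counts with list support were fixed in advance, since no OCT4 replicate list held either peak. At 50 kb the added peaks lay near Klf6 and Klf13, and genes with a site listed as higher in Dox+ rose from 2 to 4 with Klf11 and Klf13. At a −log10 q-value of at least 2 the genes with a merged SMAD3 peak fell from 8 to 5 in Dox+ and to 4 in Dox-, but these values did not follow peaks between lists. The number of genes with covered bases higher in every Dox+ list was 0, 1 per Mb of list, and 0 to 3 when single replicates were left out, 3 without Dox+ replicate 1. The mean signal difference at the OCT4 peaks was 15.4 over 200 bp and 9.61 over 1000 bp.

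Differences of covered bases turned at 4 genes, none called in any setting. Klf4 (-134) became 65.7 with no flank and 1190 at −log10 q of at least 2, with a range of -777 to 537 over left-out replicates, positive without Dox+ replicate 1 (537) or Dox- replicate 2 (362). Klf6 (812) ran from -545, without Dox+ replicate 2, to 1925. Klf7 (-765) became 1115 at −log10 q of at least 2 and 167 with the strongest peaks of each list, -1388 to -207 over left-out replicates. Klf13 (-13) became 881 at 50 kb and 0.333 in number of peaks, with -1218 to 1219 over left-out replicates, positive without Dox+ replicate 1 (1219) or Dox- replicate 2 (937). No tried setting turned the sign at Klf3, Klf9, Klf10 or Klf11, but Klf10 and Klf11 became 0 with the strongest peaks of each list. The threshold and the choice of the strongest peaks both used the −log10 q-value of SMAD3 peaks. Because that value did not follow peaks between lists, nothing is read from the changes under these settings. Over left-out replicates Klf3 (6103) ran from 1937 to 9660, Klf9 (2734) from 1130 to 4861 and Klf10 (2447) from 1617 to 3962, each lowest without Dox+ replicate 2 and highest without Dox+ replicate 1. Klf11 (363) was lowest without Dox+ replicate 2 (120) and highest when Dox- replicate 2 was left out (739).

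Whether replicate numbers pair the samples could not be decided. The deviations of same-numbered lists from their group means correlated at 0.698, 0.636 and -0.074 over 14706 windows, and Dox+ replicate 3 correlated best with Dox- replicate 2 (0.120). In both groups replicate 1 was the shortest list and replicate 2 the longest, so these correlations cannot be told apart from list length. With the replicate block, 1 gene, Klf3, was higher within every number (exact sign-flip permutation p = 0.25, the smallest that 3 pairs allow).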

Other observations

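Beyond the 10 kb windows, a merged OCT4 peak lay 18230 bp from Klf13 at chr7:63957145-63957379, with a fold of 10.5 and a −log10 q-value of 25.5, and OCT4 replicate lists 1 and 2 both held it. A SMAD3 site over it, chr7:63957106-63957987, had a log2 mean of 2.54 in Dox+ and 0.44 in Dox-, the same Dox- value as at Klf16 and Sp8. It was a stronger OCT4 peak by fold than those of Klf3 and Klf4, and it was found only by widening the window to 50 kb. An OCT4 peak 46599 bp from Klf6, with a fold of 5.02, was held by OCT4 list 3. A SMAD3 site 17960 bp from Klf11, chr12:24680749-24682220, had log2 means of 2.59 in Dox+ and 0.90 in Dox-. Whether other genes lie nearer was not tested, so the sites are not assigned to Klf13, Klf6 or Klf11.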
